A study of Mus musculus with 8 samples.

Results

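The collagen and laminin chain genes of the mouse were followed across 4 cell groups taken from injured liver. They were chosen by symbol alone, as every gene named Col followed by a number, a and a number, or Lama, Lamb or Lamc followed by a number. This gave 55 genes, 44 collagen and 11 laminin chains, of 21968 named genes in the data. All mice carried an Lgr5-LacZ transgene on a mixed C57BL/6 and CBA background, and their age is given as 10 to 12 weeks in the sample labels and as 7 to 12 weeks in the series text. Every mouse had received 1 intraperitoneal dose of carbon tetrachloride (CCl4, 1 µl per g in rapeseed oil), a hepatotoxin, 6 days earlier. No uninjured group and no group without the transgene was analysed here. Of the 4 groups, 2 consisted of F4/80high cells, either b-gal+ or b-gal-. The third held EpCAM-positive cells, named cholangiocytes in the series text, and the fourth hepatocytes. All but the hepatocytes were sorted by flow cytometry with a fluorogenic β-galactosidase substrate (FDG) and antibodies to F4/80, a macrophage antigen, or EpCAM, an epithelial antigen, while low-speed centrifugation, with no antibody, gave the hepatocytes. Each group had n = 2 libraries, and each library pooled cells of 2 mice. Nothing in the labels says that the libraries came from different mice, so p-values measure only the spread between these pools.

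Collagens are trimers of 3 chains that wind into a triple helix. Fibrillar collagens, such as types I, III and V, build the cables of scar and stroma, and in injured liver they come mainly from activated stellate cells and portal fibroblasts. Collagen IV forms the sheet-like network of basement membranes, and its chains are encoded by gene pairs that lie head to head. Laminins are cross-shaped trimers of an alpha, a beta and a gamma chain that start the basement membrane and bind integrins. Healthy liver sinusoids lack a continuous basement membrane, whereas bile ducts and larger vessels rest on one. Collagen XVIII, a multiplexin with heparan sulfate chains, carries endostatin at its end. The liver was dissociated with collagenase and pronase, so RNA of these genes was measured, not the deposited matrix.

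Levels are given as CPM, reads scaled to a common library size with TMM factors, and library depth ran from 16948568 to 24549242 reads of named genes. At that depth 3 reads, the limit that a count of 0 allows, equal 0.122 to 0.177 CPM before TMM scaling. The labels were checked against marker genes. The summed CPM of 13 Kupffer cell and macrophage markers was 42340 and 39160 in the b-gal+ libraries, 4270 and 2849 in b-gal-, and at most 1414 in the other 4. The sum of 15 sinusoidal endothelial markers was 24720 and 28330 in the b-gal- libraries, 10520 and 8812 in the EpCAM-positive libraries, 4591 and 3320 in b-gal+ and 541 and 1281 in hepatocytes. So the libraries labelled b-gal- F4/80high held more RNA of endothelial than of macrophage markers. The libraries labelled EpCAM-positive held Epcam at 88.5 and 214 CPM but more summed RNA of endothelial markers than of 14 bile duct markers (2159 and 7117 CPM). Their replicates were also the least alike, with Spearman's rho of 0.926 across genes against 0.980 to 0.985 in the other groups. Of 19 stellate cell and fibroblast markers the sum was 386 to 1707 CPM over the 8 libraries, and 6 B and plasma cell markers summed to 4293 and 1655 CPM in the EpCAM-positive libraries against at most 76.4 elsewhere. In bulk RNA, fewer cells of a type and less RNA per cell cannot be told apart.

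**Figure D1:**
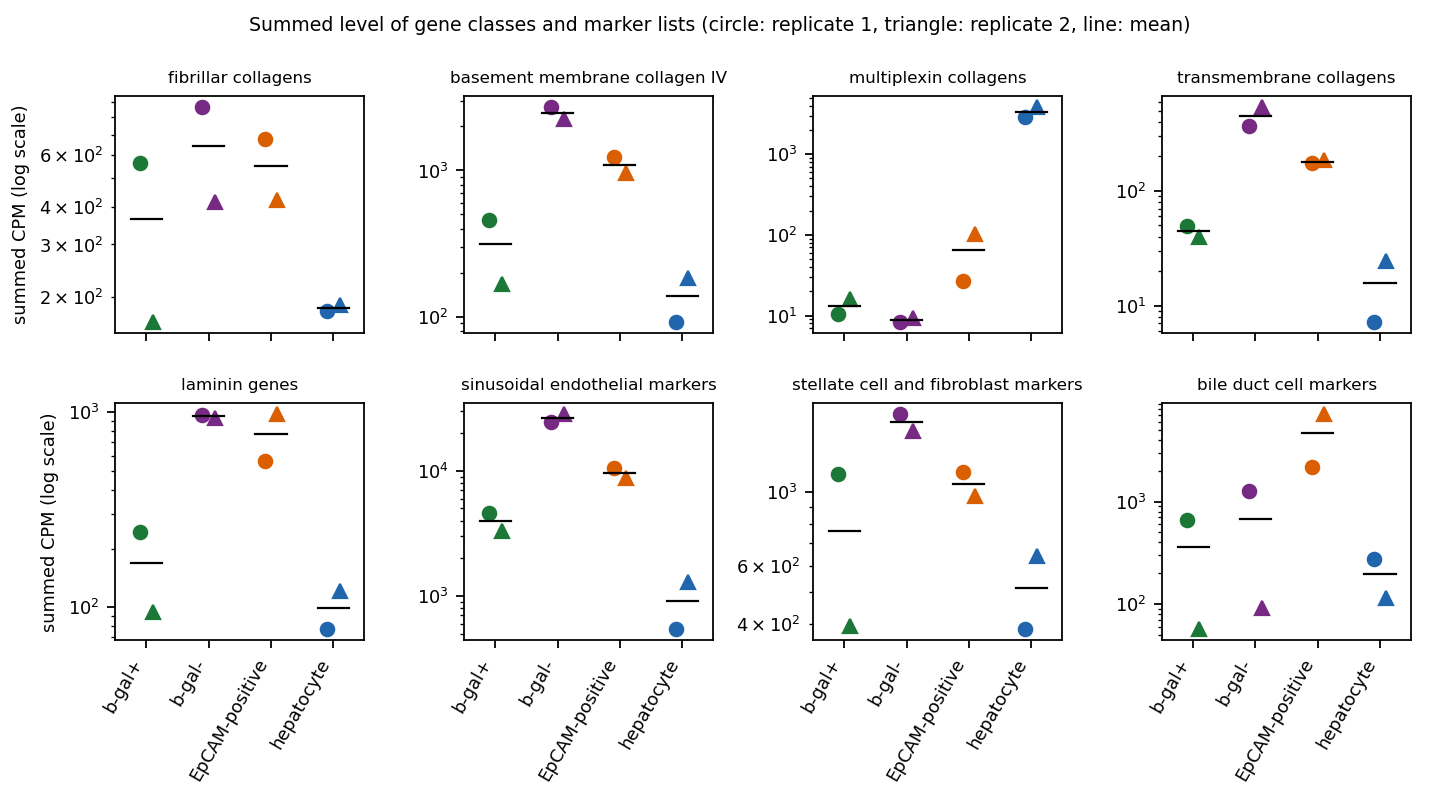
Summed CPM (log axis) of 5 collagen and laminin classes and 3 marker lists in each library; circles are replicate 1, triangles replicate 2 and lines the mean of a group. Collagen IV, the transmembrane collagens and the endothelial markers were highest in both b-gal- libraries, and the multiplexins in both hepatocyte libraries.

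The 3 collagen IV gene pairs are shown first because their levels are compared pair by pair. In GENCODE M21 (GRCm38), Col4a1 (chromosome 8, 11198423 to 11312826, minus strand) and Col4a2 (11312805 to 11449287, plus strand) share 22 bases at their starts. The starts of Col4a3 and Col4a4 on chromosome 1 have 71 bases between them, and those of Col4a5 and Col4a6 on chromosome X have 1308. Promoter windows of 300 bases, 250 before to 50 after the start in RefSeq, were found for 5 of the 6 genes (GRCm38.p6, chr8:11312777-11313076 minus, chr8:11312555-11312854 plus, chr1:82586800-82587099 minus, chrX:141475169-141475468 plus and chrX:141474027-141474326 minus, in the order printed). Each is written 5′ to 3′ on the gene's own strand. Capitals mark the 22 bases that lie in both genes of the first pair and the 71 bases between the starts of the second. The last 2 windows have none.
Col4a1: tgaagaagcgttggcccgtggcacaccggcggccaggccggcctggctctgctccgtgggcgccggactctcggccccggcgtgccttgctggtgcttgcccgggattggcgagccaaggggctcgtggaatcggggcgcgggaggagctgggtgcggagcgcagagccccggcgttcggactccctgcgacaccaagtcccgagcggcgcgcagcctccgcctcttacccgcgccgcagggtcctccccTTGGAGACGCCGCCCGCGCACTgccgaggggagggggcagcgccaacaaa
Col4a2: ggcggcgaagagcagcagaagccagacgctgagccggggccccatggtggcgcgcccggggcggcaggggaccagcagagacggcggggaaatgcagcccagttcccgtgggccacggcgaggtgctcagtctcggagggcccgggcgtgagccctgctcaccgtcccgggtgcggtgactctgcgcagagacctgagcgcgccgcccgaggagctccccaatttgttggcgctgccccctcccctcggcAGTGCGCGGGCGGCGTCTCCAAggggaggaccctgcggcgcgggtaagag
Col4a4: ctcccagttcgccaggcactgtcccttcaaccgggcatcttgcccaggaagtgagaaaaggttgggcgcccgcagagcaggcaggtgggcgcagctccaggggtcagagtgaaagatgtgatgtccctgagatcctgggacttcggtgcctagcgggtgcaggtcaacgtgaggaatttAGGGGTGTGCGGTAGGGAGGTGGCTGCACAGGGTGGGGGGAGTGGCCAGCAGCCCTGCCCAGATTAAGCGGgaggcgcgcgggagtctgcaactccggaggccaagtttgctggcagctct
Col4a5: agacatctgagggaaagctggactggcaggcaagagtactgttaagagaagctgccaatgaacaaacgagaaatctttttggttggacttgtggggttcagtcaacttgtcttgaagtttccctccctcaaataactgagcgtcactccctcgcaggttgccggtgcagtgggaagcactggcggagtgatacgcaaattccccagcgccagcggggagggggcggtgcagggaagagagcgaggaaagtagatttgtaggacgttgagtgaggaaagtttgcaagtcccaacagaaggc
Col4a6: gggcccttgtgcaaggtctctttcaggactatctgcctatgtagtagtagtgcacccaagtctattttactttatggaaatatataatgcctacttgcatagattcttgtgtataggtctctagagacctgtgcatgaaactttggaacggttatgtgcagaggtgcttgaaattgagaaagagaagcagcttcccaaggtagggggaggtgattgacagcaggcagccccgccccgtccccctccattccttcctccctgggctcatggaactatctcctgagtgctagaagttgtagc
The windows of Col4a1 and Col4a2 lie on opposite strands and share only the bases from 11312777 to 11312854. Their GC content was 74.0% and 73.7%. Col4a4 had 63.3%, Col4a5 52.7% and Col4a6 48.3%, and the median of 32851 windows was 52.7%. On either strand, GGGCGG was found in the windows of Col4a1, Col4a2, Col4a5 and Col4a6 and CCAAT in those of Col4a1, Col4a2 and Col4a5, whereas Col4a4 had neither and TATAAA was in none of the 5. Of all windows, 35.7% hold GGGCGG, 37.4% CCAAT and 13.6% TATAAA; these are matches of letters only, and 40 of the 55 genes had an entry.

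The 55 genes together took the largest share of reads in the b-gal- libraries. It was 0.625% (exact 95% interval 0.622 to 0.628) and 0.530% (0.527 to 0.534) there, against 0.422% (0.419 to 0.424) and 0.425% (0.422 to 0.428) in EpCAM-positive cells. In hepatocytes it was 0.184% (0.183 to 0.186) and 0.241% (0.239 to 0.243), and in b-gal+ cells 0.174% (0.172 to 0.175) and 0.0658% (0.0648 to 0.0669). These intervals cover counting error only. The order of groups depended on the scale. In TMM-scaled CPM the 55 genes summed to 5296 and 4395 in b-gal- and 3343 and 4565 in hepatocyte libraries. Their sum was 2974 and 2861 CPM in EpCAM-positive and 1630 and 611 CPM in b-gal+ libraries. On that scale hepatocytes lay above EpCAM-positive cells and overlapped b-gal- cells. What made up the sum differed by group. The 6 collagen IV genes gave 51.5% and 51.2% of it in b-gal- libraries, 41.6% and 33.4% in EpCAM-positive, 28.1% and 27.3% in b-gal+ and 2.76% and 4.03% among hepatocytes. A single gene, Col18a1, gave 84.6% and 83.8% of the hepatocyte sum. Of the 55 genes, 45 passed the low-count filter and were tested, and 33 of them had a mean of at least 10 CPM in 1 group or more. Among the 45, the highest mean was in b-gal- cells for 24 genes, in EpCAM-positive cells for 13, in hepatocytes for 5 and in b-gal+ cells for 3. The 24 in b-gal- cells included no gene called above all 3 other groups. All 5 in hepatocytes were called above all 3 others (Col18a1, Col15a1, Col5a3, Col12a1 and Lamb3), as were Lamc3 and Col4a6 in EpCAM-positive cells and Col11a2 in b-gal+ cells. Over all tested genes, 5.63% were called higher in b-gal- than in EpCAM-positive cells. Higher calls in hepatocytes than in each other group made up 29.1% to 29.7%. The share of all genes called above all 3 other groups was not counted.

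**Figure D2:**
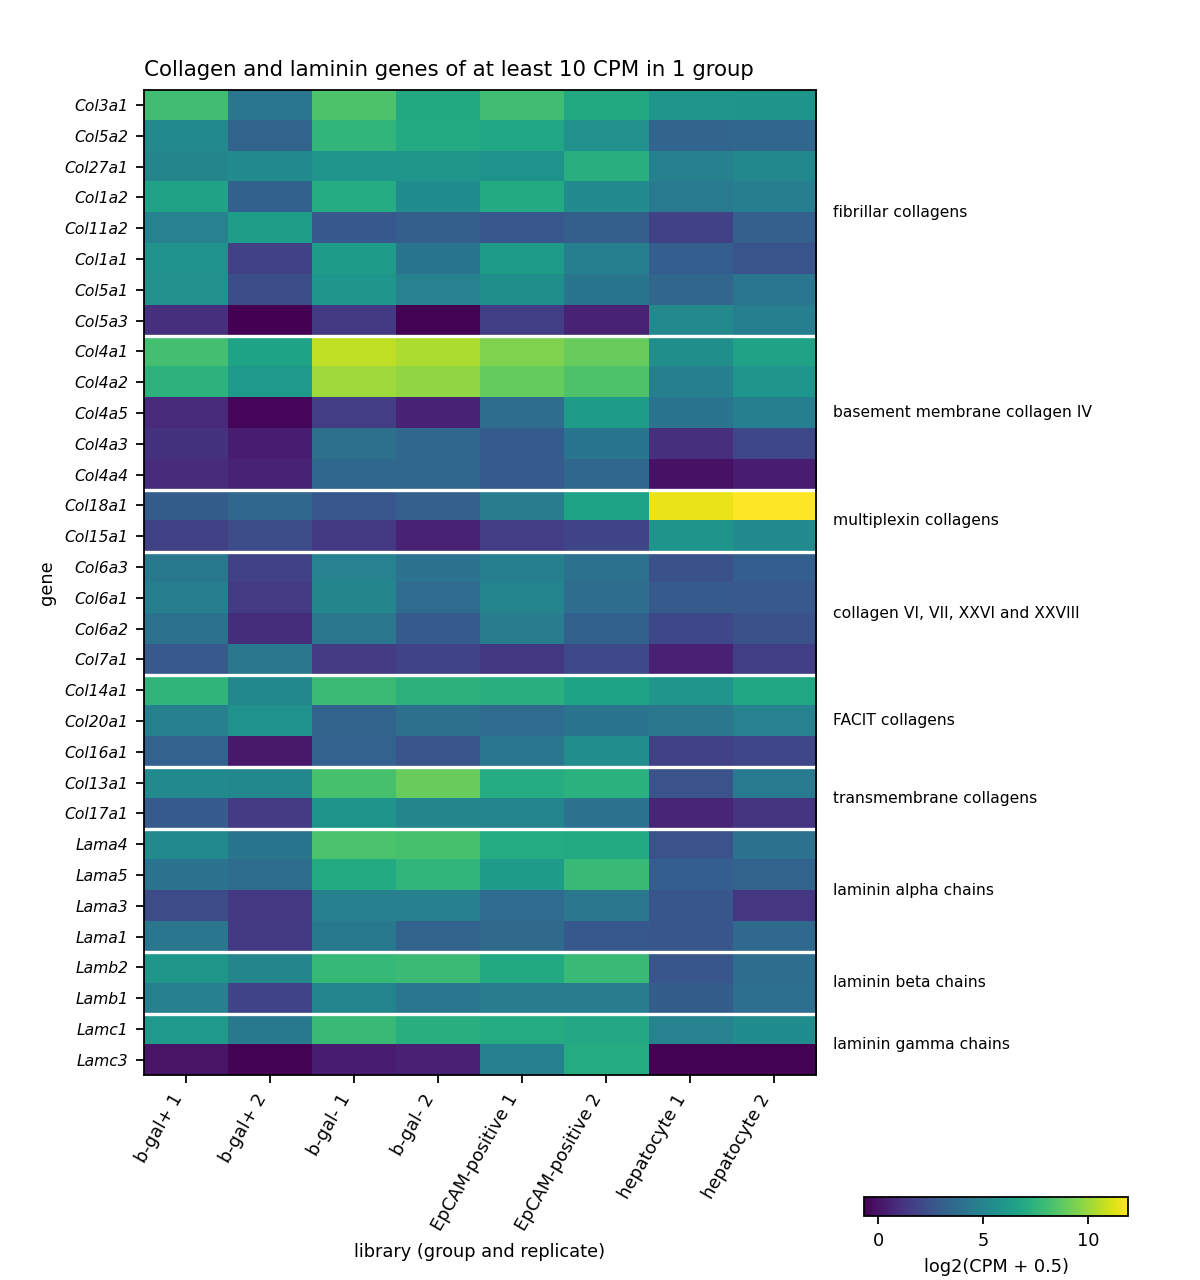
Heat map of log2(CPM + 0.5) for 32 genes that reached a mean of 10 CPM in 1 group or more; rows are genes ordered by class and level, columns are the 8 libraries. The bright Col4a1 and Col4a2 rows peak in the b-gal- libraries at 904 to 1632 CPM, and Col18a1 peaks in hepatocytes at 2828 and 3827 CPM.

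Each pair of groups was compared with limma on log2(CPM + 0.5), two-sided, and a gene is called at a Benjamini-Hochberg adjusted p under 0.05 over 14404 genes. Each group enters 3 of the 6 comparisons, so they share libraries. Between b-gal+ and b-gal- cells, 14 of the 45 genes were called, 2 higher and 12 lower in b-gal+. Of all tested genes 23.3% were called, 10.4% higher and 13% lower, and the median log2 difference was -1.13 for the 45 and -0.02 for all genes. This count rested on single libraries: it was 7 without b-gal+ replicate 2, 8 without either b-gal- replicate and 22 without b-gal+ replicate 1. Between b-gal+ and EpCAM-positive cells, 23 were called, 2 higher and 21 lower, where 32.5% of all genes were called (14.7% higher, 17.9% lower; medians -1.52 and -0.03). That count was 7 without b-gal+ replicate 2 and 13 without EpCAM-positive replicate 2. Between b-gal- and EpCAM-positive cells, 7 were called, all lower in b-gal-, where 12.2% of all genes were called (5.63% higher, 6.57% lower; medians 0.00 and 0.07). The 7 became 0 without either b-gal- replicate, with 12 and 9 genes at an unadjusted p under 0.05 in limma, and 2 to 4 without a b-gal+ or hepatocyte replicate. Against hepatocytes the calls were 14 for b-gal+ (8 higher, 6 lower), where 59.2% of all genes were called (29.5% higher, 29.6% lower). They were 20 for b-gal- cells (14 and 6), where 63.2% were called (33.5% and 29.7%), and 27 for EpCAM-positive cells (21 and 6), where 62.5% were called (33.5% and 29.1%). The medians were 0.27, 1.28 and 1.62, beside 0.10, 0.17 and 0.15 for all genes. The b-gal+ count against hepatocytes was 9 without hepatocyte replicate 1.

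The scaling mattered for the hepatocyte comparisons. TMM factors were 0.552 and 0.527 among hepatocytes and 1.07 to 1.49 elsewhere. With the scaling in the deposited values instead, the median of all genes rose by 0.77, 0.96 and 1.17 against hepatocytes for b-gal+, b-gal- and EpCAM-positive cells, and the collagen and laminin calls split 15 higher and 6 lower, 24 and 5, and 31 and 4. In the 3 comparisons without hepatocytes the same change moved the median of all genes by -0.13, -0.30 and -0.15. None of the 81 calls at 10 CPM or more that were rerun reversed its direction under any of 17 other settings.

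Of the 6 collagen IV genes, 4 were called lower in b-gal+ than in b-gal- cells and all 6 lower than in EpCAM-positive cells, where 13% and 17.9% of all genes were called lower. The main collagen IV chains, Col4a1 and Col4a2, were highest in b-gal- cells. Col4a1 had 1632 and 1322 CPM in b-gal- replicates 1 and 2, 717 and 505 for EpCAM-positive, 278 and 97.1 in b-gal+ and 46.7 and 93.6 in hepatocytes. Col4a2 had 1067 and 904 CPM, 487 and 332, 175 and 67.8, and 26.2 and 59.4 in the same order. All b-gal- and EpCAM-positive libraries lay above all b-gal+ and hepatocyte libraries, and the b-gal- values did not overlap those of EpCAM-positive cells. Col4a1 fell by 3.16 ± 0.54 (log2 difference ± SE) in b-gal+ against b-gal- cells (adjusted p = 0.00729), and Col4a2 fell by 3.17 ± 0.53 (adjusted p = 0.00673). Both calls held under all 17 other settings. Against hepatocytes, Col4a1 was higher by 4.46 ± 0.54 and Col4a2 by 4.62 ± 0.53 in b-gal- cells (adjusted p = 0.000371 and 0.000293). The step from EpCAM-positive to b-gal- cells, 1.29 for Col4a1 (adjusted p = 0.165) and 1.29 for Col4a2 (0.158), did not pass. Col4a2 was called 2.74-fold higher in b-gal+ cells than in hepatocytes at adjusted p = 0.0496, but that call was lost in 12 of 17 settings, with adjusted p up to 0.296, and Col4a1 did not pass there (0.0737). Against EpCAM-positive cells, Col4a1 and Col4a2 were lower in b-gal+ cells at adjusted p = 0.0373 and 0.0344. Those calls were lost without b-gal+ replicate 2, without either b-gal- or EpCAM-positive replicate, with only these groups fitted and in edgeR, with adjusted p up to 0.174 and 0.175, and for Col4a1 also without either hepatocyte replicate or without the low-count filter.

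The 2 chains kept a near constant proportion. Per kilobase of exons, Col4a1 stood at 1.27 to 1.58 times Col4a2 in every one of the 8 libraries, while the level of each varied widely. Col4a3 and Col4a4, the chains best known from the glomerular basement membrane, were far less abundant per length. Col4a3 had 14.9 and 11.5 CPM in b-gal-, 7.32 and 17.7 for EpCAM-positive, 1.70 and 0.724 in b-gal+ and 1.55 and 3.67 among hepatocytes. Col4a4 had 11.3 and 11.4, 6.99 and 10.8, 1.39 and 0.925, and 0.443 and 0.718 CPM. For both genes the b-gal+ and hepatocyte libraries lay below all others, and the b-gal- and EpCAM-positive ranges of Col4a3 overlapped. In b-gal+ against b-gal- cells Col4a4 fell by 2.85 ± 0.33 (adjusted p = 0.00192, held in all 17 other settings) and Col4a3 fell by 3.05 ± 0.55 (adjusted p = 0.00939, lost on leaving out b-gal+ replicate 2, or replicate 1 of b-gal-, with up to 0.0718). The Col4a3 to Col4a4 ratio per kilobase was 0.833 to 1.75 outside hepatocytes, and 3.73 and 5.44 within them, where Col4a4 was below 1 CPM.

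Col4a5 and Col4a6, the X-linked pair, had another order. Col4a5 had 13.3 and 74.7 CPM in EpCAM-positive, 17.3 and 26.5 in hepatocyte, 2.50 and 0.978 for b-gal- and 1.34 and 0.201 for b-gal+ libraries. EpCAM-positive replicate 2 was the highest library, hepatocytes overlapped the EpCAM-positive range, and both F4/80high groups lay below. Col4a6 reached 4.50 and 15.2 CPM in EpCAM-positive cells and at most 0.806 in any other library. Col4a5 was lower in b-gal+ than in hepatocytes by 19.3-fold (adjusted p = 0.00447, held in all 17 settings). In b-gal- against EpCAM-positive cells it fell by 3.94 ± 0.86 (adjusted p = 0.0339), a call lost in 8 of 17 settings, up to 0.186, among them the fits without any single b-gal+, b-gal- or hepatocyte replicate and without EpCAM-positive replicate 2. EpCAM-positive and hepatocyte levels of Col4a5 did not differ beyond their spread (0.56 ± 0.86, adjusted p = 0.594). So of the 2 genes, hepatocyte libraries held Col4a5, with Col4a6 at 0.0738 and 0.0798 CPM, which is 1 read in each.

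Of the 11 laminin genes, 5 were called lower in b-gal+ than in b-gal- cells, 8 lower than in EpCAM-positive cells, and none higher in either, where 13% and 17.9% of all genes were called lower. Among the alpha chains, Lama4 and Lama5, the chains typical of vessel walls, were the most abundant per kilobase in b-gal- and EpCAM-positive libraries. Lama4 (chromosome 10, 38965515 to 39110188) had 320 and 297 CPM in b-gal-, 135 and 126 for EpCAM-positive, 39.4 and 18.1 in b-gal+ and 5.32 and 15.7 among hepatocytes. No 2 groups overlapped. Lama4 was 11.3-fold lower in b-gal+ than in b-gal- cells (SE 0.52 on the log2 scale, adjusted p = 0.00419, held in all 17 other settings) and was 31.8-fold higher in b-gal- cells than in hepatocytes (adjusted p = 0.000182). Its step from EpCAM-positive to b-gal- cells (1.24 ± 0.52) did not pass (adjusted p = 0.164). Lama5 had 127 and 195 CPM in b-gal-, 76.1 and 230 for EpCAM-positive, 16.6 and 13.2 in b-gal+ and 7.97 and 9.42 among hepatocytes. The EpCAM-positive pair spanned the whole b-gal- range, and both other groups lay far below. Lama5 fell by 3.37 ± 0.49 in b-gal+ against b-gal- cells (adjusted p = 0.00407) and by 3.12 ± 0.49 against EpCAM-positive cells (adjusted p = 0.0048), and both calls held in all 17 settings. Lama3, a chain of epithelial laminin, had 27.5 and 27.3 CPM in b-gal-, 12.8 and 19.1 for EpCAM-positive, and at most 5.91 in any other library. It was called lower in b-gal+ cells against both, at adjusted p = 0.0069 and 0.0167, and both calls were lost without b-gal+ replicate 2 (the second also without EpCAM-positive replicate 2), with adjusted p up to 0.0574 and 0.107. Lama1 was at 18.3 and 2.21 CPM in the b-gal+ pair, 20.9 and 9.49 in the b-gal- pair, 12.1 and 6.43 in EpCAM-positive libraries and 5.98 and 11.8 among hepatocytes. Every pair of groups overlapped, and no comparison of Lama1 passed.

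Lamb2, the beta chain of mature vessels, had 217 and 238 CPM in b-gal-, 122 and 233 for EpCAM-positive, 63.5 and 34.2 in b-gal+ and 5.98 and 13.9 among hepatocytes. Hepatocytes lay below all other libraries and b-gal+ next above them, while the EpCAM-positive and b-gal- ranges overlapped. Lamb2 was 4.88-fold higher in b-gal+ cells, 23.5-fold in b-gal- cells and 17.5-fold in EpCAM-positive cells than in hepatocytes (adjusted p = 0.00559, 0.000205 and 0.000383), and these calls held in all 17 settings. Its fall by 2.27 ± 0.48 in b-gal+ against b-gal- cells (adjusted p = 0.0169) was lost without b-gal+ replicate 2 or either b-gal- replicate, up to 0.113. Lamb1, the other common beta chain, passed in none of the 6 comparisons with all libraries, with 26.9 and 3.38 CPM in the b-gal+ pair, 31.0 and 18.8 in the b-gal- pair, 24.5 and 24.1 in EpCAM-positive libraries and 7.61 and 14.5 in hepatocytes, which lay below b-gal- and EpCAM-positive cells without overlap. Without b-gal+ replicate 1, Lamb1 passed against hepatocytes in b-gal- and EpCAM-positive cells (adjusted p = 0.0436 and 0.0432), and without replicate 2 likewise (0.0458 and 0.0433). Without replicate 1 it also fell by 2.67 in b-gal+ against b-gal- cells (0.0214) and by 2.68 against EpCAM-positive cells (0.0198), and it passed as lower than in hepatocytes (0.0438). Per kilobase, Lamb2 gave 87.9% to 95.4% of the beta chain level in b-gal- and EpCAM-positive libraries, and 34.7% and 45.1% in hepatocytes. Lamb3, an epithelial chain, was highest in hepatocytes at 7.16 and 8.78 CPM, with 1.95 and 3.03 in EpCAM-positive cells and at most 0.0805 in F4/80high libraries.

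Of the gamma chains, Lamc1 was found in all groups, and Lamc3 was highest in the EpCAM-positive libraries. Lamc1 (chromosome 1, 153218922 to 153332786) had 219 and 151 CPM in b-gal-, 134 and 121 for EpCAM-positive, 68.2 and 20.8 in b-gal+ and 29.4 and 43.3 among hepatocytes. The hepatocyte pair lay within the b-gal+ range, and these 2 groups did not differ beyond their spread (0.08 ± 0.52, adjusted p = 0.908). Lamc1 fell by 2.25 ± 0.52 in b-gal+ against b-gal- cells (adjusted p = 0.0217), a call lost in 6 of 17 settings, up to 0.0996: without b-gal+ replicate 2, any 1 library of b-gal- cells or hepatocytes, or all libraries of the other 2 groups. Lamc3 (chromosome 2, 31887291 to 31946539) had 26.8 and 134 CPM in EpCAM-positive, 0.768 and 0.881 in b-gal-, 0.492 and 0.161 in b-gal+ and 0.148 and 0.160 among hepatocytes. The EpCAM-positive libraries lay far above all 6 others, and replicate 2 was the higher. Against EpCAM-positive cells, Lamc3 fell by 6.23 ± 0.69 in b-gal+ cells (adjusted p = 0.00196) and fell by 5.52 ± 0.69 in b-gal- cells (0.0177), and it was 6.53 ± 0.69 higher in EpCAM-positive cells than in hepatocytes (0.000249). The b-gal- call was lost without either b-gal- replicate and with only these groups fitted, up to 0.122.

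The summed level of the 14 bile duct markers was 2159 and 7117 CPM for the EpCAM-positive pair. It was 1273 and 90.7 CPM for the b-gal- pair, 661 and 56.8 CPM for the b-gal+ pair and 275 and 115 CPM among hepatocytes. Of the b-gal- and b-gal+ sums, Spp1, singled out after its values were seen, gave 1263 and 78.6 CPM and 655 and 53.5 CPM. In EpCAM-positive cells Krt19 stood at 28.4 and 112 CPM and Krt7 at 19.6 and 58.2. These levels were a small part of the sums there, and the part of Spp1 in those sums is not given. Of the 14 bile duct markers, 12 were called higher in EpCAM-positive than in b-gal+ cells and 11 higher than in b-gal- cells. The shares of all genes called so were 17.9% and 6.57%. Outside the EpCAM-positive group Epcam was at 0 to 1.47 CPM. The sum of 7 mesothelial cell markers was 41.4 and 99.9 CPM in EpCAM-positive libraries and at most 7.18 elsewhere. The part of bile duct or mesothelial cells in the Lamc3, Col4a5 and Col4a6 levels was not tested.

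**Figure D3:**
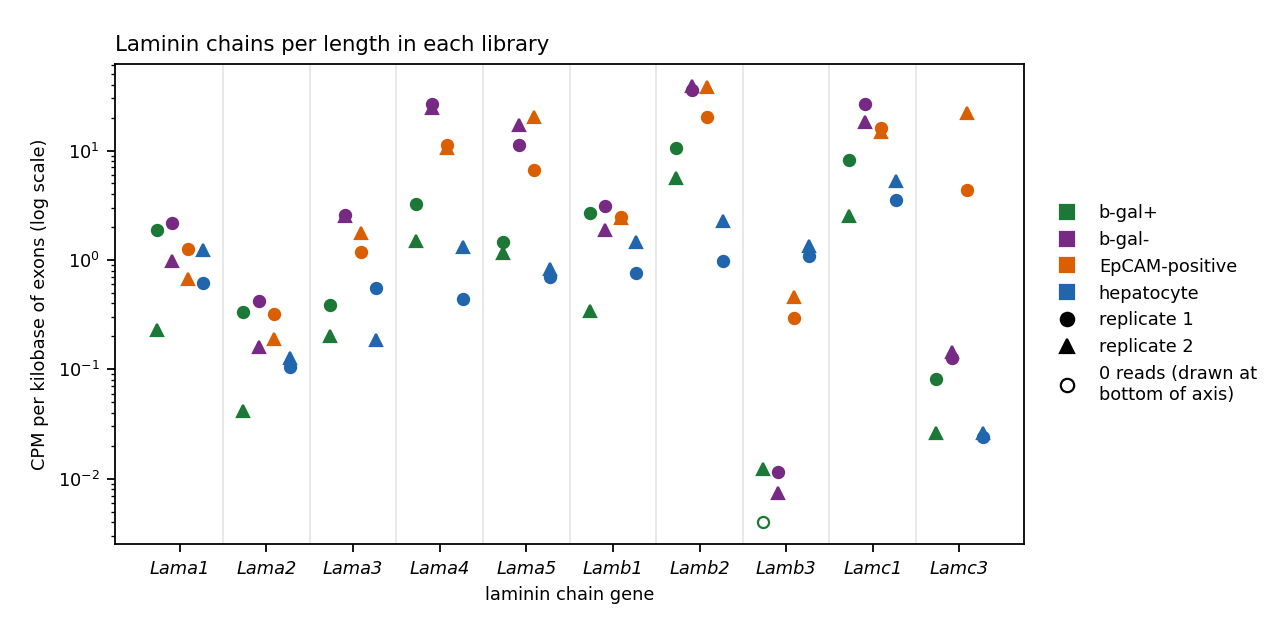
CPM per kilobase of exons (log axis) of 10 laminin chain genes in each library; colours are groups, circles replicate 1, triangles replicate 2, and open symbols at the bottom mark 0 reads. Lamc3 stood out in EpCAM-positive libraries, where Lama4, Lamb2 and Lamc1 lay near or below the b-gal- values.

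Col18a1 (chromosome 10, 77052178 to 77166548), the chain of the multiplexin collagen XVIII, was the most hepatocyte-bound gene of the set. It had 2828 and 3827 CPM in hepatocytes, 24.1 and 99.1 for EpCAM-positive, 7.69 and 11.5 for b-gal+ and 6.18 and 8.51 for b-gal- libraries. Hepatocytes lay above all other libraries, EpCAM-positive libraries came next and the 2 F4/80high groups overlapped. Col18a1 was 332-fold lower in b-gal+, 424-fold lower in b-gal- and 66.5-fold lower in EpCAM-positive cells than in hepatocytes (adjusted p = 4.13e-05, 3.25e-05 and 0.000191), in all 17 settings as well. Between b-gal+ and b-gal- cells it differed by 0.35 ± 0.60 (adjusted p = 0.737). Hepatocyte markers moved with it. Their sum of 14 genes was 256300 and 345100 CPM in hepatocytes, 982 and 5387 in EpCAM-positive libraries and 580 to 2386 in F4/80high libraries. Much of the F4/80high sums was Trf, singled out after its values were seen. Its mean was 1574 CPM for b-gal+, where the mean sum was 2097, and 308 for b-gal-, where that sum was 610. Among the 14 markers, Trf alone was called between these groups, with b-gal+ the higher (adjusted p = 0.00746). The part of hepatocyte RNA in the levels outside hepatocytes was not tested. Col15a1, the other multiplexin, had 55.9 and 41.6 CPM in hepatocytes and 0.930 to 4.42 elsewhere. Its hepatocyte level was called above b-gal+ (12.1-fold, adjusted p = 0.000284), b-gal- (24.9-fold, 8.26e-05) and EpCAM-positive cells (14.3-fold, 0.000243), in all 17 settings. Col5a3, a minor fibrillar chain, had 37.1 and 26.6 CPM in hepatocytes and at most 2.67 in any other library. It fell by 4.82 ± 0.84 in b-gal+, by 4.60 ± 0.84 in b-gal- and by 3.90 ± 0.84 in EpCAM-positive cells against hepatocytes (adjusted p = 0.00232, 0.00271 and 0.00607), and the EpCAM-positive call was lost without hepatocyte replicate 1 (0.0503).

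The classical fibrillar chains were lower in hepatocytes than in b-gal- and EpCAM-positive cells in every library, but no difference passed. Col1a1 (chromosome 11, 94936224 to 94953042), the main chain of collagen I, had 51.8 and 3.02 CPM in the b-gal+ pair, 77.4 and 18.3 in the b-gal- pair, 70.8 and 26.0 in EpCAM-positive libraries and 7.97 and 5.43 among hepatocytes. Col1a2, its partner, had 95.1 and 8.89, 135.6 and 43.3, 126 and 41.7, and 22.2 and 25.9 CPM in the same order. Col3a1 had 261 and 18.3 CPM, 330.3 and 123, 267 and 126, and 60.2 and 55.7. In b-gal+ cells replicate 1 was high and replicate 2 below every hepatocyte library for all 3 genes, so b-gal+ overlapped hepatocytes, and b-gal- overlapped EpCAM-positive cells. All 4 libraries of b-gal- and EpCAM-positive cells lay above both hepatocyte libraries for the 3 genes, from 18.3 CPM against at most 7.97 for Col1a1, from 41.7 against 25.9 for Col1a2 and from 123 against 60.2 for Col3a1. The largest of their log2 differences was 2.62 ± 1.27 for Col1a1 in EpCAM-positive cells against hepatocytes (adjusted p = 0.113), and for Col3a1 it was 1.79 ± 1.14 in b-gal- cells against hepatocytes (0.208). Col1a2 reached 1.66 ± 1.11 in the same comparison as Col3a1 (0.228). Col5a1, Col6a1, Col6a2 and Col6a3, chains of collagens V and VI, passed in none of the 6 comparisons either. The spread between the b-gal+ libraries enters every comparison of the shared fit, and leaving out either one gave calls. Without b-gal+ replicate 2, Col1a1 passed in b-gal- and EpCAM-positive cells against hepatocytes (adjusted p = 0.0386 and 0.0302), as did Col3a1 (0.0342 and 0.0443) and Col6a3 (0.0155 and 0.0212). Without b-gal+ replicate 1 the same 3 genes passed there (Col1a1 0.0376 and 0.0302, Col3a1 0.0315 and 0.0418, Col6a3 0.0156 and 0.0218). Against b-gal+ cells the calls depended on which library was kept. With replicate 2 alone, Col3a1 fell by 3.43 against b-gal- cells (adjusted p = 0.0268), and with replicate 1 alone it was 2.13 higher than in hepatocytes (0.0407).

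This spread followed the replicates. For the 7 genes Col1a1, Col1a2, Col3a1, Col5a1, Col6a1, Col6a2 and Col6a3, replicate 1 was higher than replicate 2 in all 7 in b-gal+, b-gal- and EpCAM-positive cells. The median ratio was 11.0 for b-gal+ (7.01 to 17.2), 2.68 for b-gal-, 2.61 for EpCAM-positive cells and 0.859 for hepatocytes, where 3 of the 7 were higher in replicate 1. The 7 were grouped after their values were seen. The 19 stellate cell and fibroblast markers moved in the same direction in b-gal+ cells: 17 were higher in replicate 1, with a median ratio of 2.91, Reln at 179 and 21.6 CPM and Pdgfra at 18.2 and 1.77, but Lrat at 24.6 and 28.2. Their median ratio was 1.17 for b-gal-, 1.33 for EpCAM-positive cells and 0.687 for hepatocytes. The part of stellate cells or fibroblasts in the fibrillar chains was not tested. In b-gal+ cells, replicate 1 was 2.86 times replicate 2 for Col4a1, 2.18 for Lama4 and 1.11 for Col13a1.

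**Figure D4:**
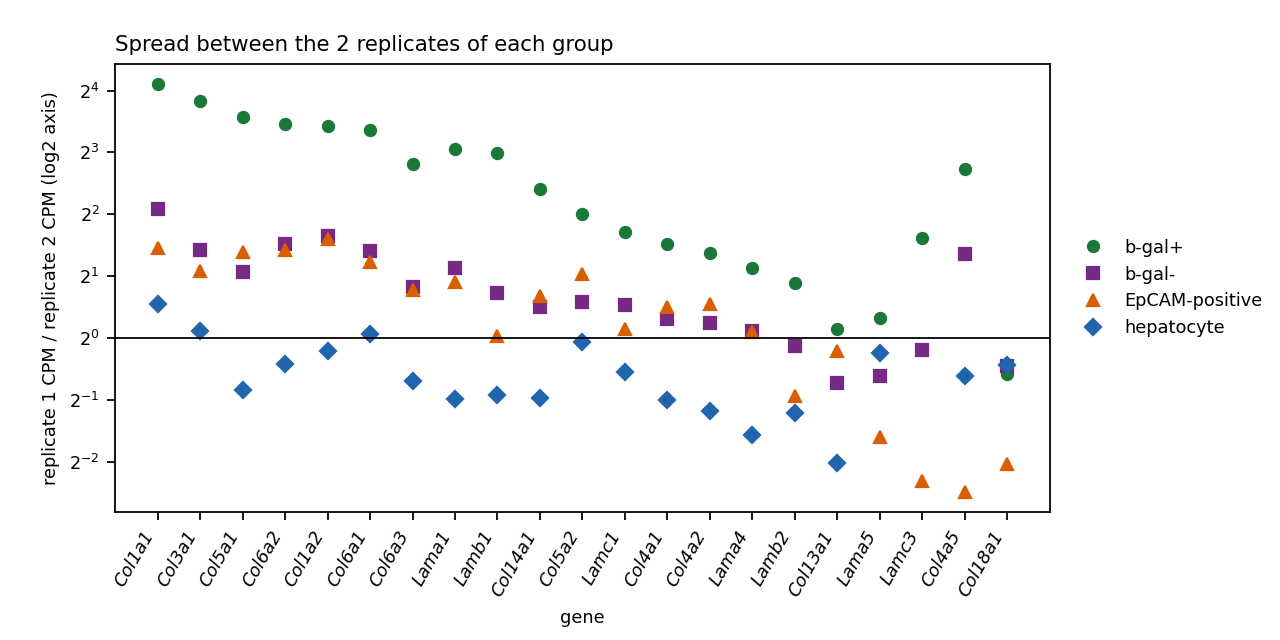
Ratio of replicate 1 to replicate 2 CPM in each group (log2 axis) for 21 genes. In b-gal+ cells the ratio was 17.2 for Col1a1 and 1.11 for Col13a1, and the EpCAM-positive points of Lamc3, Col4a5 and Col18a1 lie below 1.

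Other fibrillar chains did pass. Col5a2, which shares trimers with Col5a1, had 195 and 130.0 CPM in b-gal-, 103 and 50.5 for EpCAM-positive, 38.2 and 9.57 in b-gal+ and 10.0 and 10.5 among hepatocytes. The b-gal- libraries lay above all others, and the hepatocyte pair fell within the b-gal+ range. Col5a2 was 14.8-fold higher in b-gal- and 6.73-fold higher in EpCAM-positive cells than in hepatocytes (adjusted p = 0.00151 and 0.00774, the second lost without hepatocyte replicate 1 at 0.0548). In b-gal+ against b-gal- cells it fell by 3.02 ± 0.63 (adjusted p = 0.0156), lost without either b-gal- replicate and with only these groups fitted, up to 0.0743. Per kilobase, Col5a2 stood at 0.658 and 1.95 times Col5a1 in the b-gal+ libraries and at 2.83 and 3.93 times in the b-gal- libraries. The ratio was 1.91 and 2.45 in EpCAM-positive libraries and 0.848 and 0.497 among hepatocytes. Col27a1, a fibrillar chain of cartilage, had 150.0 CPM in EpCAM-positive replicate 2 and 27.8 to 63.4 in the other 7 libraries, and was 2.79-fold higher in EpCAM-positive cells than in hepatocytes (adjusted p = 0.0229, lost without either hepatocyte replicate and with only these groups fitted, up to 0.141).

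Col11a2, a chain of cartilage collagen XI, was the only gene called higher in b-gal+ cells than in each other group. It had 29.5 and 79.5 CPM in the b-gal+ pair, 6.26 and 8.22 in the b-gal- pair, 6.17 and 8.34 in EpCAM-positive libraries and 2.88 and 8.46 among hepatocytes. Both b-gal+ libraries lay above all others, with replicate 2 the higher, opposite to Col1a1, Col3a1 and Col5a2. Col11a2 was 6.38-fold higher than in b-gal- (adjusted p = 0.0192), 6.38-fold than in EpCAM-positive cells (0.0151) and 8.91-fold than in hepatocytes (0.0033). The first was lost without b-gal+ replicate 2 or either b-gal- replicate (up to 0.113), the second without b-gal+ replicate 2 (0.0885), and the third in no setting. Rxrb, 1038 bases away on the same strand, stood at 85.8 and 91.2 CPM in the b-gal+ pair and at 46.3 to 69.4 CPM elsewhere. Col20a1, a collagen that associates with fibrils, had 27.7 and 54.9 CPM in the b-gal+ pair, 9.56 and 14.9 in the b-gal- pair, 12.8 and 17.3 in EpCAM-positive libraries and 19.1 and 29.7 among hepatocytes. It was called higher than in b-gal- (3.18-fold, adjusted p = 0.0262) and EpCAM-positive cells (2.57-fold, 0.0411), but these calls were lost in 4 and 10 of 17 settings, up to 0.143 and 0.212, in both cases without b-gal+ replicate 2 or either b-gal- replicate. Col7a1, the anchoring fibril chain, had 6.49 and 20.1 CPM in b-gal+ and 0.886 to 3.74 elsewhere. It passed against hepatocytes (adjusted p = 0.011, lost without hepatocyte replicate 1 or b-gal+ replicate 2, reaching 0.0849), and not against b-gal- (0.0744) or EpCAM-positive cells (0.0598).

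Col13a1 (chromosome 10, 61838236 to 61979108), a membrane-spanning collagen, followed the order of Lama4. It had 304 and 504 CPM in b-gal-, 138 and 161 for EpCAM-positive, 40.4 and 36.4 in b-gal+ and 5.24 and 21.4 among hepatocytes, and no 2 groups overlapped. It was 35.0-fold higher in b-gal- cells and 13.4-fold higher in EpCAM-positive cells than in hepatocytes (adjusted p = 0.000269 and 0.00133), in all 17 settings. In b-gal+ against b-gal- cells Col13a1 fell by 3.34 ± 0.58 (adjusted p = 0.00762), lost without replicate 2 of either group, up to 0.0582. Col17a1, a membrane collagen of epithelial anchoring complexes, had 55.8 and 33.1 CPM in b-gal-, 30.9 and 16.6 for EpCAM-positive, 7.11 and 2.41 in b-gal+ and 1.11 and 1.84 among hepatocytes. The 4 groups kept this order without overlap, and Col17a1 fell by 3.21 ± 0.55 in b-gal+ against b-gal- cells (adjusted p = 0.00741, held in all 17 settings). Col14a1, which decorates collagen I fibrils, passed in no comparison at 35.7 to 239 CPM over the 8 libraries, but without b-gal+ replicate 1 or 2 it passed in b-gal- cells against hepatocytes (adjusted p = 0.031 and 0.0353), and without replicate 1 it fell by 2.48 in b-gal+ against b-gal- cells (0.0278). Col16a1, another fibril-associated chain, was highest in EpCAM-positive cells at 18.3 and 43.5 CPM and was called above hepatocytes (adjusted p = 0.0292) and b-gal+ cells (0.0444), calls lost in 3 and 10 of 17 settings, up to 0.139 and 0.176.

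The sum of the 15 sinusoidal endothelial markers had the same order of groups as the main basement membrane chains. Of the 15, 14 were called lower in b-gal+ than in b-gal- cells and 15 higher in b-gal- and EpCAM-positive cells than in hepatocytes. Of all genes, 13% were called lower in b-gal+ than in b-gal- cells. Against hepatocytes, 33.5% were called higher in b-gal- and 33.5% in EpCAM-positive cells. Fewer of the 15 markers, 11, were called lower in b-gal+ than in EpCAM-positive cells, where 17.9% of all genes were. Only 4 were called higher in b-gal- than in EpCAM-positive cells, where 5.63% of all genes were. Stab2 was at 3710 and 4187 CPM for b-gal-, 901 and 718 for b-gal+ and 71.1 and 196 among hepatocytes. Set against 1000 CPM of the summed markers, Col13a1 varied 2.08-fold over the 8 libraries (8.80 to 18.3 CPM), Col4a2 2.37-fold (20.4 to 48.4), Lama4 2.63-fold (5.44 to 14.3), Col4a1 2.95-fold (29.3 to 86.3) and Lamb2 3.15-fold (8.39 to 26.4). On the same scale Col17a1 varied 4.04-fold, Col4a4 4.39-fold, Col5a2 6.43-fold and Lama5 7.24-fold. Wider still were Lamc1 at 10.2-fold, Col1a1 at 22.9-fold, Col11a2 at 94.6-fold, Lamc3 at 489-fold and Col18a1 at 20890-fold. Against 1000 CPM of the stellate cell and fibroblast markers, Col14a1 varied 1.93-fold, Lamc1 2.44-fold, Lamb1 2.91-fold and Lama1 3.28-fold. The fibrillar chains varied more there, Col5a1 4.14-fold, Col1a2 4.90-fold, Col3a1 5.03-fold, Col5a2 6.97-fold and Col1a1 8.09-fold. These ranges are descriptions over 8 libraries that include the group differences, and the part of endothelial cells in them was not tested.

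**Figure D5:**
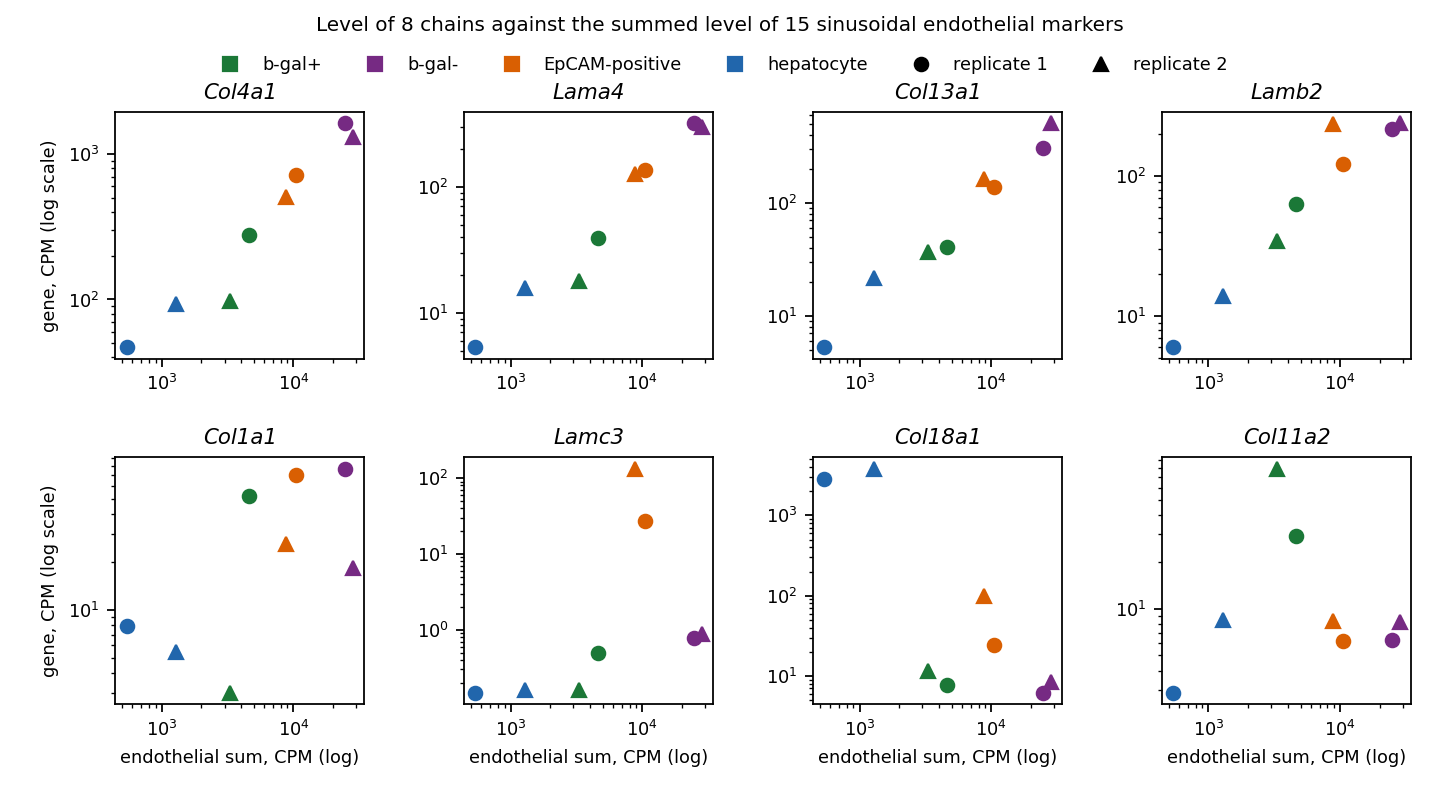
CPM of 8 chains against the summed CPM of 15 sinusoidal endothelial markers in each library, both axes logarithmic; colours are groups, circles replicate 1 and triangles replicate 2. Col4a1, Lama4, Col13a1 and Lamb2 rise with the marker sum, while Lamc3, Col18a1 and Col11a2 each stand high in the libraries of 1 group.

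The remaining 22 genes stayed below 10 CPM in every group. Of these, 12 were tested and had a highest group mean of 1.17 to 9.84 CPM. Besides Lamb3 and Col4a6, they include Col12a1, with 4.58 and 6.39 CPM in hepatocytes and at most 0.881 elsewhere, Col9a3, with 4.92 and 9.24 in EpCAM-positive cells, and Col23a1, with 6.02 and 7.26 there. Lama2, the laminin chain of muscle, reached 6.84 CPM in b-gal- replicate 1 and passed in no comparison. The 10 that did not pass the filter (Col2a1, Col8a2, Col9a1, Col9a2, Col10a1, Col11a1, Col19a1, Col22a1, Col26a1 and Col28a1) had 1 to 45 reads in their highest library.

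Other components of the basement membrane gave 17 tested genes. In b-gal+ against b-gal- cells 1 was higher and 7 lower (median -0.88). Of all genes, 10.4% were higher and 13% lower there, 23.3% in either direction. Against EpCAM-positive cells 1 was higher and 13 lower in b-gal+ cells (median -1.85). There 14.7% of all genes were higher and 17.9% lower, 32.5% in either direction. Hspg2 (perlecan) had 234 and 139 CPM for b-gal+ and 1765 and 2090 for b-gal- libraries and fell by 3.41 ± 0.48 (adjusted p = 0.00352). Nid1 (nidogen 1), which links laminin to collagen IV, had 122 and 47.2 against 787 and 676 CPM and fell by 3.26 ± 0.48 (adjusted p = 0.00431). Smoc1, a calcium-binding matrix protein, had 361 and 437 CPM in hepatocytes, 10.5 and 57.2 in EpCAM-positive and at most 0.523 in F4/80high libraries, and was called in all 3 comparisons with hepatocytes (adjusted p = 6.28e-05, 5.2e-05 and 0.00225). The b-gal- libraries thus held more Hspg2 and Nid1 than b-gal+, and hepatocytes held most Smoc1.

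Of 31 tested folding and processing enzymes of collagen, 3 were higher and 11 lower in b-gal+ than in b-gal- cells (median log2 difference -0.94, all genes -0.02), where 10.4% of all genes were higher and 13% lower. The share of enzymes called higher was thus close to that of all genes. Serpinh1, the collagen chaperone HSP47, had 52.0 and 20.0 CPM in the b-gal+ pair, 213 and 206 in the b-gal- pair, 128 and 144 in EpCAM-positive libraries and 14.3 and 19.6 among hepatocytes. It fell by 2.68 ± 0.41 in b-gal+ against b-gal- cells (adjusted p = 0.00479). Pcolce2, an enhancer of procollagen C-proteinase, went the other way with 185 and 164 CPM in b-gal+ and at most 7.88 in any other library (4.43 ± 0.62 against b-gal-, adjusted p = 0.00353). Bmp1, the C-proteinase itself, had 281 and 337 CPM in hepatocytes, 17.4 and 72.6 in EpCAM-positive libraries and 1.53 to 9.18 in F4/80high libraries, and fell by 6.47 ± 0.77 in b-gal+ cells against hepatocytes (adjusted p = 0.00036). The enzyme and its enhancer thus peaked in different groups.

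Of 18 tested receptors, none was higher and 5 were lower in b-gal+ than in b-gal- cells (median log2 difference -1.185, all genes -0.02). Of all genes, 10.4% were higher and 13% lower there. In either direction 23.3% of all genes were called, a share close to that of the receptors. Against EpCAM-positive cells 1 was higher and 10 were lower, where 14.7% of all genes were higher and 17.9% lower. Itga1, a collagen-binding integrin chain, had 30.3 and 16.3 CPM for b-gal+ and 220.3 and 231 for b-gal- libraries (fell by 3.31 ± 0.34, adjusted p = 0.00141). Itgb4, the laminin-binding integrin chain of hemidesmosomes, had 12.4 and 69.9 CPM in EpCAM-positive and at most 5.14 in any other library, and Ddr1, a collagen receptor kinase of epithelia, had 53.0 and 128 there and at most 4.34 elsewhere. Both were higher in EpCAM-positive cells than in hepatocytes (adjusted p = 0.0012 and 0.000417). As for Lamc3, EpCAM-positive replicate 2 was the higher. Lair1, an inhibitory collagen receptor of leukocytes, had 177 and 192 CPM in the b-gal+ pair, 51.7 and 25.8 in the b-gal- pair, 31.2 and 4.00 in EpCAM-positive libraries and 1.40 and 1.52 among hepatocytes, and rose by 6.56 ± 0.82 in b-gal+ cells against hepatocytes (adjusted p = 0.000484). Sdc1, a syndecan that binds collagens and laminins, was highest in hepatocytes at 870 and 1119 CPM.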

How the data were processed

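RNA of 8 libraries, 2 in each of 4 cell groups, was sequenced in bulk. Per the submitters' processing notes, reads were counted with HTSeq on GRCm38.p4 (mm10); for the aligner, annotation, versions, strand setting and scaling step, nothing is given in the sources used here. Values of hepatocyte replicate 1 are deposited as read counts. Those of the other 7 libraries were deposited by the authors as counts multiplied by a factor per library (1.08 to 1.54), with decimal commas. Dividing by each library's step gave whole reads within 0.01 for 100% of the values. Of 21982 rows, 14 carry dates in place of symbols and 0.0514% to 0.182% of the reads, and were left out.

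TMM factors from edgeR 4.0.16 scaled the reads, which were tested with limma 3.58.1 in R 4.3.3, with a trend, on log2(CPM + 0.5), all 8 libraries in 1 fit with 4 residual degrees of freedom, for 14404 genes that passed filterByExpr. Folds are on that scale and understate changes of low genes. Quasi-likelihood tests of edgeR and DESeq2 1.42.0, other scalings, pseudocounts of 0.1 and 2, no filter, a replicate block, fits of only 2 groups and each library left out in turn were alternatives. Exact intervals are Clopper-Pearson. Exon lengths and positions come from GENCODE M21, in which all 55 symbols matched, and promoters from RefSeq. Exons overlapping another gene cannot be told apart from it without strand; the 2 genes of a collagen IV pair share at most 22 bases. Genes are named where the mean reached 10 CPM in 1 group; for the lists of other matrix genes, the called genes with the 4 largest differences per comparison could be named. Members and lists were chosen with earlier results of these data known. A member is counted in the totals but not reported here by name.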

Additional observations from a re-analysis of the deposited data

How the results depend on the processing

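The counts of collagen and laminin genes called stayed within 1.5 times the reported ones in edgeR, DESeq2, other scalings and pseudocounts and without the filter. With only the 2 groups compared in the fit, which leaves fewer samples for the spread, the count was 35 for b-gal- against hepatocytes, 11 for b-gal+ against EpCAM-positive cells and 0 for b-gal- against EpCAM-positive cells (16 genes at an unadjusted p under 0.05 in limma); the cause was not tested. Leaving out 1 library at a time gave 7 to 22 calls for b-gal+ against b-gal-, 9 to 18 for b-gal+ against hepatocytes, 17 to 26 for b-gal- against hepatocytes, 7 to 26 for b-gal+ against EpCAM-positive cells, 0 to 10 for b-gal- against EpCAM-positive cells and 19 to 30 for EpCAM-positive cells against hepatocytes. A group left with 1 library is assumed to vary like the others.

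The labels give replicate numbers but do not say that they pair libraries. The differences between replicates 1 and 2 correlated across genes with r of 0.177 to 0.494 between groups, a description over genes that are not independent. With the replicate number as a block the counts were 16, 13, 24, 25, 7 and 29 for b-gal+ against b-gal-, b-gal+ and b-gal- against hepatocytes, b-gal+ and b-gal- against EpCAM-positive cells, and EpCAM-positive cells against hepatocytes. Of 81 gene calls rerun, 79 held with the block and none reversed. Of Col1a1, Col1a2, Col3a1, Col5a1, Col6a1, Col6a2 and Col6a3, which passed in no comparison as reported, Col1a1 passed with the block in b-gal- and EpCAM-positive cells against hepatocytes (adjusted p = 0.0276 and 0.0215), and none passed in b-gal+ against b-gal- cells (0.192 to 0.336). Over all 17 settings, these 7 chains passed in some comparison in 1 to 6 settings each, Col14a1 in 4 and Lamb1 in 3, and Lama1 and Lama2 in 0. Depth limits what can be said of the 10 genes under the filter, and 2 libraries per group limit the rest.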
